A study of Homo sapiens with 9 samples.

Results

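The seed family of miR-148 and miR-152 comprises hsa-miR-148a-3p, hsa-miR-148b-3p and hsa-miR-152-3p, and its 3 members were taken by name from the 2652 mature miRNA names of the count table. The study asked which miRNAs in ovarian cancer cells bind to the 3'UTR of PD-L1, the immune checkpoint ligand encoded by CD274. It used miTRAP, in which a bait RNA tagged with MS2 loops is immobilised on resin by a protein that binds those loops, mixed with lysate and eluted with the RNA it caught. All 9 small RNA libraries came from ES-2, a human ovarian cancer line, wild-type and untreated, with 3 replicates each of the lysate before trapping (input), of the eluate of a bait with the MS2 loops alone (MS2 control) and of the eluate of the PD-L1 3'UTR bait. Per the study's methods more of the PD-L1 3'UTR bait than of the MS2 control bait was applied. Effects of bait sequence and of bait amount therefore cannot be told apart between the trapped groups. The labels do not say whether replicates were separate cultures, so p-values measure the spread between these libraries. The table holds miRNAs only, so the identity of the cells was not checked against mRNA markers.

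miRNAs are loaded into Argonaute proteins and pair with target mRNAs mainly through the seed, bases 2 to 8 from their 5' end. miRNAs with the same seed are therefore predicted to share targets, although pairing further along can differ. The family is known for repressing the DNA methyltransferase DNMT1 and the non-classical MHC molecule HLA-G, and miR-148a-3p and miR-152-3p have been described as repressors of PD-L1. miR-148a is abundant in several normal tissues, the liver among them.

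The members are shown in full, with the seed in capitals, because they share the seed and differ only outside it. Sequences were taken from RefSeq (GRCh38.p14), where no other of the 2370 mature names has this seed.

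hsa-miR-148a-3p: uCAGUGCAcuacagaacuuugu

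hsa-miR-148b-3p: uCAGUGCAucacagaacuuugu

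hsa-miR-152-3p: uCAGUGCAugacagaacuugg

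Counting from 1 at the 5' end, miR-148a-3p and miR-148b-3p differ by C9U and U10C, and miR-148b-3p and miR-152-3p by C10G and U20G. miR-148a-3p and miR-152-3p differ by C9U, U10G and U20G. Every pair thus differs by at least 2 bases, and each member has 1 locus in the table. On GRCh38.p14, miR-148a-3p lies on the reverse strand of chromosome 7 (25949922 to 25949943), miR-148b-3p on the forward strand of chromosome 12 (54337278 to 54337299) and miR-152-3p on the reverse strand of chromosome 17 (48037174 to 48037194). The hairpins of miR-148b and miR-152 lie within COPZ1 and COPZ2, which encode paralogous zeta subunits of the COPI coat. That of miR-148a lies within an uncharacterised RNA gene. In the GENCODE annotation of GRCh37, all 3 positions are intronic.

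The 3'UTR of CD274 holds 2 matches to this seed of at least 6 paired bases, which are the same for all members. They were sought on the sense strand of the 2692 bases of the 3'UTR in exon 7 of transcript CD274-202 (chromosome 9, 5467863 to 5470554, forward strand, GRCh37). An 8mer pairs with bases 2 to 8 and has an A opposite base 1. A 7mer-A1 pairs with bases 2 to 7 and has the same A. Both are shown with the bases upstream that would face the rest of the miRNA, and with the match in capitals.

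8mer, chr9:5469797-5469804: tgggctctccagggTGCACTGA

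7mer-A1, chr9:5467995-5468001: acttaaaaggcccaaGCACTGA

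The 8mer ends 750 bases before the end of the 3'UTR, and the 7mer-A1 begins at its base 133. An 8mer in this 3'UTR was found for 137 of the 2370 mature names (5.78%), so such a match is not rare. How far the bait covered the 3'UTR was not analysed here, and a match is not evidence of binding.

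Input libraries were the deepest, with 3794799 to 5983577 miRNA counts. Those of the MS2 control had 1156261 to 2236535 counts, and PD-L1 3'UTR libraries 672824 to 1237652. Abundance is given as CPM, the counts relative to library size after TMM scaling of the library sizes. The least count treated as detectable, 3, was worth 0.68 to 4.02 CPM depending on the library. All 3 members passed the filter on low counts, as did 408 miRNAs in all. PD-L1 3'UTR replicate 1 stood apart from replicates 2 and 3, with correlations of log2 CPM across miRNAs of 0.948 and 0.950, against 0.977 between replicates 2 and 3. Replicate 1 also had the lower correlations in the input (0.991 and 0.988, against 0.995) and in the MS2 control (0.971 and 0.965, against 0.974). Results that rest on PD-L1 3'UTR replicate 1 are given with and without it.

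In the lysate, miR-148b-3p was the main member. miR-148b-3p had 3408, 3161 and 3175 CPM in input replicates 1, 2 and 3, and ranked 35th of 408 by mean. miR-152-3p had 915, 957 and 1060 CPM and ranked 66th. miR-148a-3p had 35.2, 68.4 and 48.0 CPM, from 134, 203 and 213 counts, and ranked 195th. The order was the same in every input library and the ranges did not overlap, so that miR-148b-3p took 74.1% to 78.2% of the family's counts and miR-148a-3p 0.81% to 1.63%.

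In the MS2 control, the members stood closer together. miR-148b-3p had 328, 447 and 567 CPM in replicates 1, 2 and 3, below each input library. miR-152-3p had 429, 416 and 393 CPM, again below each input library. miR-148a-3p had 328, 385 and 266 CPM, above each input library. miR-148a-3p was below miR-152-3p in each of these libraries, and the range of miR-148b-3p overlapped those of both.

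With the PD-L1 3'UTR, miR-148b-3p was the leading member in replicates 2 and 3 but not in replicate 1. miR-148b-3p had 7509, 10014 and 8866 CPM in replicates 1, 2 and 3, above every other library. miR-152-3p had 663, 668 and 714 CPM, between the MS2 control and the input libraries without overlap. miR-148a-3p had 20762, 476 and 181 CPM, from 29327, 355 and 249 counts. Replicate 1 was 63.2-fold the mean of the other 2, which lay near the MS2 control, 1 above its range and 1 below it.

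**Figure D1:**
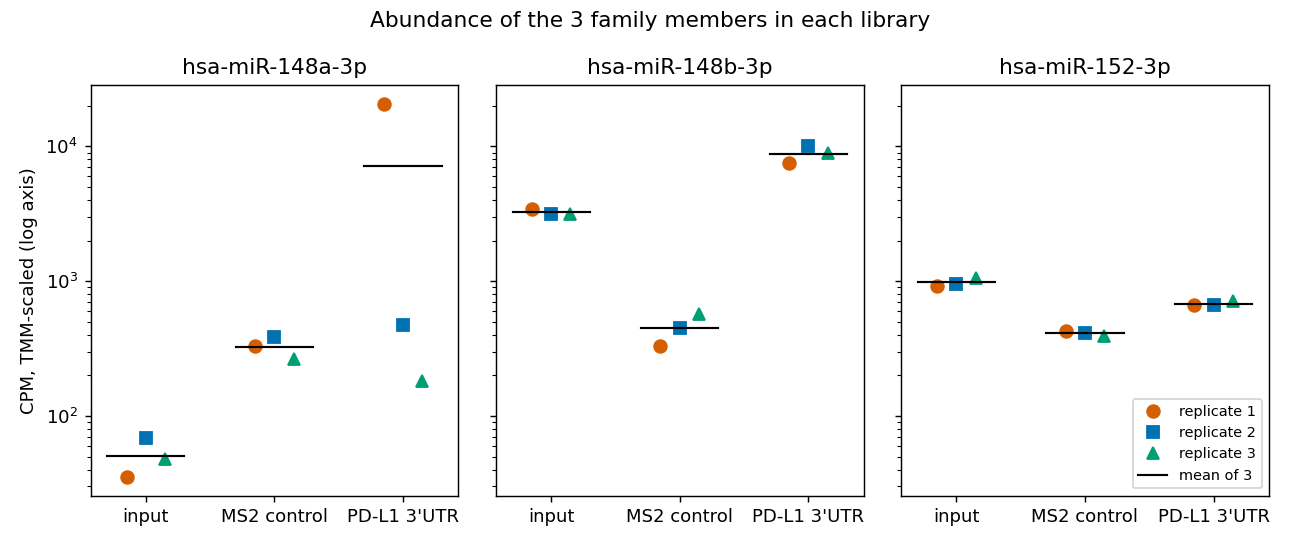
Abundance of each member in the 9 libraries, in TMM-scaled CPM on a log axis, with 1 point per replicate and a line at the mean of 3. miR-148b-3p and miR-152-3p form separate levels in each group, whereas miR-148a-3p reaches 20762 CPM in PD-L1 3'UTR replicate 1 and stays at 476 and 181 CPM in replicates 2 and 3.

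The comparison with the MS2 control asks which miRNAs had a higher relative level with the 3'UTR bait than with loops and resin alone. The groups also differed in bait amount, which was larger for the 3'UTR. miR-148b-3p rose from 447 ± 119 CPM (SD, n = 3) to 8796 ± 1254 CPM, which is 4.30 ± 0.21 (SE) as a log2 fold change (adjusted p of 4.63e-08 by edgeR's quasi-likelihood test with Benjamini-Hochberg adjustment). miR-152-3p rose from 413 ± 18.5 to 682 ± 27.9 CPM, or 0.72 ± 0.13 in log2 (adjusted p of 0.000602). miR-148a-3p also passed the threshold of 0.05, at 4.45 ± 1.41 (adjusted p of 0.0179), but its libraries overlapped. Without PD-L1 3'UTR replicate 1 its log2 fold change was 0.038 ± 0.38 (adjusted p of 0.946), and the call was also lost without MS2 control replicate 1 (adjusted p of 0.0586) or replicate 3 (adjusted p of 0.0658).

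Thus 3 of 3 members were called higher, 2 of them with libraries that did not overlap and 2 of them also without PD-L1 3'UTR replicate 1. Among all 408 miRNAs, 31.4% were called higher, 28.7% were called lower and 32.6% were higher with libraries that did not overlap. The rise of miR-148b-3p was about 20-fold and ranked 29th of 408, and that of miR-152-3p was 1.65-fold and ranked 140th. The values of miR-148b-3p and miR-152-3p without replicate 1 were 4.44 ± 0.21 and 0.78 ± 0.15.

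Against the input, the members went different ways. miR-148b-3p rose from 3248 ± 139 CPM (SD, n = 3), by 1.44 ± 0.19 (SE) in log2 (adjusted p of 8.68e-05). miR-152-3p fell from 978 ± 74.7 CPM, its log2 fold change being -0.52 ± 0.13 (adjusted p of 0.00446). The fall of miR-152-3p depended on the scaling, being 0.050 ± 0.13 with library totals (adjusted p of 0.751). With library totals the median of all miRNAs moved up by 0.57, and miR-152-3p stood at -0.55 relative to that median.

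miR-148a-3p had 7.14 ± 1.6 over the input in log2 (adjusted p of 0.00259), and of 2.65 ± 0.38 without PD-L1 3'UTR replicate 1 (adjusted p of 9.52e-05). It was higher than in every input library in 3 of 3 PD-L1 3'UTR libraries, though the mean of replicates 2 and 3 was 6.50-fold the input and that of the MS2 control was 6.46-fold. Called higher were therefore 2 of 3 members and lower 1, against 34.1% and 32.4% of all miRNAs. The libraries of all members were separated from the input, as they were for 37.3% of all miRNAs upwards and 37.5% downwards. Higher than both comparison groups were miR-148a-3p and miR-148b-3p, among 18.9% of all miRNAs, and without replicate 1 miR-148b-3p was the member that remained.

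The MS2 control against the input compares the relative levels of the members in the eluate of loops alone with those in the lysate. The amount of RNA recovered does not enter these values. miR-148b-3p fell, with a log2 fold change of -2.86 ± 0.20 (adjusted p of 1.13e-06), and so did miR-152-3p, with -1.24 ± 0.13 (adjusted p of 1.32e-05). miR-148a-3p had a log2 fold change of 2.69 ± 1.32, which did not pass the threshold (adjusted p of 0.0898), although all 3 MS2 control libraries lay above all input libraries. The shared estimate of its spread included PD-L1 3'UTR replicate 1. In a fit of the 6 input and MS2 control libraries alone, the value was 2.66 ± 0.27 (adjusted p of 1.54e-05), and without PD-L1 3'UTR replicate 1 it was 2.61 ± 0.36 (adjusted p of 3.99e-05).

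Among all miRNAs, 32.8% were called higher in the MS2 control and 37.0% were called lower, and 35.8% and 39.7% had libraries that did not overlap in these directions. Both falls held with library totals, where they were -2.24 and -0.61 while the median of all miRNAs moved to 0.65. These 3 comparisons share libraries, so a low level in the MS2 control enters both its fall against the input and the rise of the PD-L1 3'UTR over it.

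**Figure D2:**
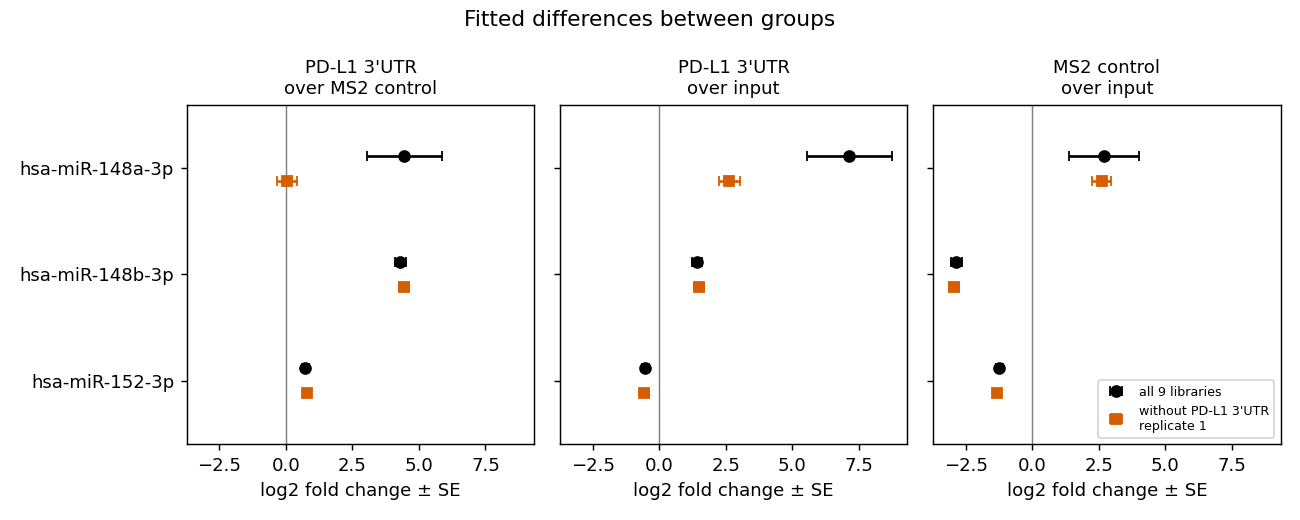
Fitted log2 fold change ± SE of each member in the 3 comparisons, from all 9 libraries (black circles) and without PD-L1 3'UTR replicate 1 (orange squares). Over the MS2 control miR-148a-3p moves from 4.45 to 0.038 without that library, whereas miR-148b-3p stays above 4.

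Ratios between members within a library do not depend on the scaling between libraries. The log2 ratio of miR-148b-3p to miR-152-3p was 1.90, 1.72 and 1.58 in the input, -0.39, 0.10 and 0.53 in the MS2 control and 3.50, 3.90 and 3.63 with the PD-L1 3'UTR. The 3 groups did not overlap. The mean ratio was thus higher by 3.6 with the PD-L1 3'UTR than in the MS2 control and by 1.95 than in the input (exact permutation p of 0.10 each, two-sided, the smallest that 3 against 3 allows, and 0.15 adjusted over the 9 comparisons of ratios). Although both have the same seed, miR-148b-3p rose more than miR-152-3p in every PD-L1 3'UTR library.

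The log2 ratio of miR-148a-3p to miR-148b-3p was -6.59, -5.53 and -6.04 in the input and 0, -0.21 and -1.09 in the MS2 control. With the PD-L1 3'UTR it was 1.47 in replicate 1 and -4.39 and -5.61 in replicates 2 and 3. Replicate 3 thus lay within the input range, replicate 2 between the input and the MS2 control, and replicate 1 above every other library. The difference from the MS2 control had an exact permutation p of 0.40 (0.45 adjusted). To miR-152-3p, miR-148a-3p had log2 ratios of 4.97 in PD-L1 3'UTR replicate 1 and of -0.49 and -1.98 in replicates 2 and 3, against -0.56 to -0.11 in the MS2 control and -4.69 to -3.80 in the input. The mean difference from the MS2 control was 1.19 (exact permutation p of 0.90, also 0.90 adjusted) and turned to -0.88 without replicate 1.

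Summed over members, the family had 4276 ± 86.1 CPM (SD, n = 3) in the input and 1186 ± 88.6 CPM in the MS2 control. With the PD-L1 3'UTR it had 28935, 11159 and 9760 CPM in replicates 1, 2 and 3. Replicates 2 and 3 averaged 8.82 times the MS2 control level and 2.45 times that of the lysate. miR-148b-3p made up 26.0%, 89.7% and 90.8% of the family's counts in these 3 libraries, and miR-148a-3p 71.8%, 4.27% and 1.85%.

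**Figure D3:**
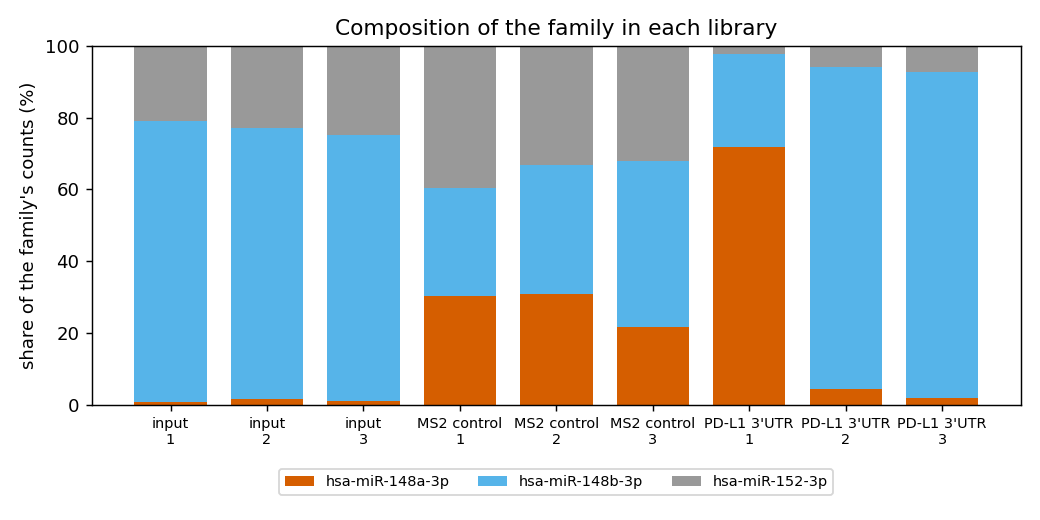
Share of each member in the family's counts, in percent, stacked for each of the 9 libraries. miR-148b-3p fills most of each input bar, the members are closer to even in the MS2 control, and PD-L1 3'UTR replicate 1 differs from replicates 2 and 3 by 71.8% of miR-148a-3p.

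The other arm of each hairpin, usually the strand discarded on loading, was far less abundant. Of the 3 partner arms, 2 passed the filter. They carry other seeds, shown in capitals.

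hsa-miR-148b-5p: aAGUUCUGuuauacacucaggc

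hsa-miR-152-5p: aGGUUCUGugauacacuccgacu

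miR-148b-5p had 11.3, 12.1 and 15.1 CPM in the input, 9.70, 15.9 and 20.4 CPM in the MS2 control. With the PD-L1 3'UTR it had 48.1, 41.6 and 21 CPM. It was higher with the PD-L1 3'UTR than in the MS2 control, by a log2 fold change of 1.26 ± 0.39 (adjusted p of 0.0159), a call lost without PD-L1 3'UTR replicate 1 (1.04 ± 0.45, adjusted p of 0.0676) or MS2 control replicate 1 (1.02 ± 0.40, adjusted p of 0.0566). Over the input it rose by 1.51 ± 0.38 (adjusted p of 0.00512), and the MS2 control did not differ from the input beyond the spread (0.25 ± 0.38, adjusted p of 0.576). The 5p arm made up 0.33% to 0.47% of the hairpin's counts in the input, 2.87% to 3.48% in the MS2 control and 0.24% to 0.64% with the PD-L1 3'UTR. For the miR-148b hairpin, the MS2 control was thus separated from both other groups in the share of the 5p arm. Its 95% exact binomial intervals started at 1.62%, and those of the other libraries ended at or below 0.81%. Such intervals cover counting error only, since PCR reads are not independent molecules.

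miR-152-5p had from 1.80 to 2.10 CPM in the input, 3.78 to 16.7 in the MS2 control and 8.05 to 18.4 with the PD-L1 3'UTR, from at most 42 counts. It was higher than the input in both trapped groups, by 2.63 ± 0.61 with the PD-L1 3'UTR (adjusted p of 0.0032) and by 2.22 ± 0.60 in the MS2 control (adjusted p of 0.00693, or 0.0558 without MS2 control replicate 2). Between the trapped groups it had 0.41 ± 0.56 (adjusted p of 0.553), a value that ranged from 0.017 without PD-L1 3'UTR replicate 1 to 1.23 without MS2 control replicate 2 (adjusted p of 0.0817). Unlike for miR-148b, the 5p share of the miR-152 hairpin overlapped between these groups. It was 0.95% to 3.85% in the MS2 control and 1.19% to 2.70% with the PD-L1 3'UTR. The arm hsa-miR-148a-5p had 20 counts in PD-L1 3'UTR replicate 1 and 0 in each of the other 8 libraries, where a count of 0 allows up to the floor of 3 counts. The library with the high miR-148a-3p was thus also the one with a count of its partner arm.

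PD-L1 3'UTR replicate 1 was set apart for miR-148a-3p but not for the other members. For miR-148a-3p this was known from earlier results of these data, so its rank here is a description and not a test. The log2 ratio of this library's CPM to the mean of replicates 2 and 3 was 5.98 for miR-148a-3p, 3rd of 408, against -0.33 for miR-148b-3p (309th) and -0.06 for miR-152-3p (233rd). Over all 408 miRNAs the median of this ratio was -0.00, with 90% of values between -1.10 and 1.65. Of the 160 miRNAs with at least 100 CPM in this library, 9 exceeded a ratio of 2 and none fell below -2. In the input and the MS2 control, the ratios of miR-148a-3p lay between -0.71 and 0.70. The 0.70 of input replicate 2 ranked 5th of 408, above the range of -0.64 to 0.42 that held 90% of values there. In every other library of these groups, miR-148a-3p lay within that library's 90% range.

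The 5 miRNAs with the largest such ratio were miR-122-5p, miR-143-3p, miR-148a-3p itself, miR-203a-3p and miR-1-3p. miR-122-5p, the main miRNA of hepatocytes, had 161 CPM in PD-L1 3'UTR replicate 1 and 0 and 0.73 CPM in replicates 2 and 3. miR-143-3p, typical of smooth muscle and stroma, had 9124, 121 and 39.9 CPM. miR-203a-3p, typical of stratified epithelium, had 547, 14.8 and 1.45 CPM, and miR-1-3p, typical of striated muscle, had 1433, 101 and 25.4 CPM. Each of these 4 was also higher in all MS2 control libraries than in any input library, as was miR-148a-3p.

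**Figure D4:**
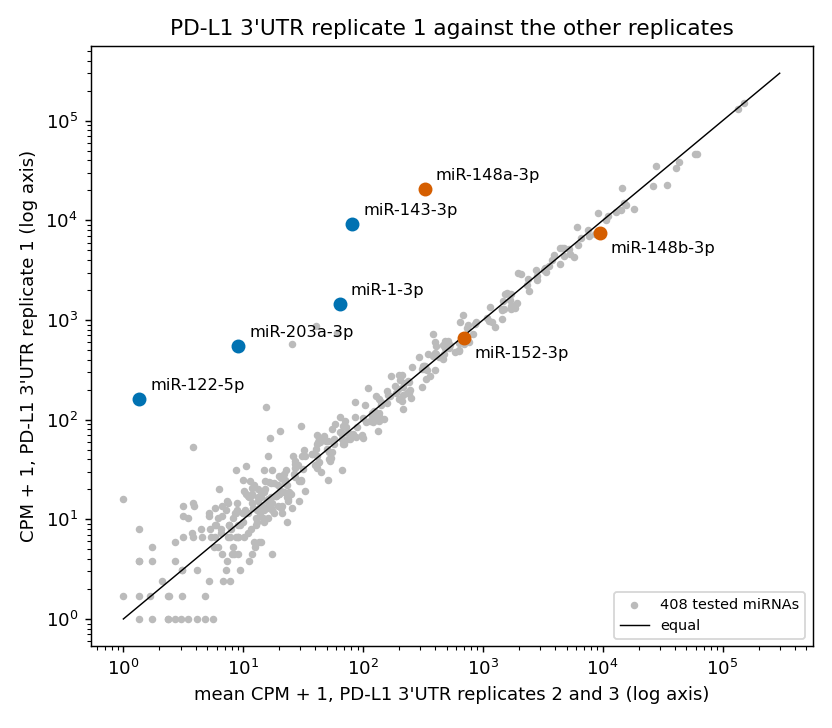
CPM + 1 of the 408 tested miRNAs in PD-L1 3'UTR replicate 1 against the mean of replicates 2 and 3, both on log axes, with the line of equal values. miR-148a-3p (20762 against 328 CPM) lies far above the line with miR-143-3p, miR-1-3p, miR-203a-3p and miR-122-5p, and miR-148b-3p and miR-152-3p lie near it.

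To set these values in context, 19 miRNAs typical of tissues other than ovarian cancer cells were listed after the values had been seen, from liver, muscle, endothelium, red blood cells, leukocytes, stratified epithelium, neurons and endocrine cells. Of the 19, 18 were highest of all 9 libraries in PD-L1 3'UTR replicate 1. The list held miR-122-5p, miR-143-3p, miR-203a-3p and miR-1-3p, already named above for their values in this library. The same share over all miRNAs was not computed, so this count describes the list and tests nothing. The summed level of the 19 was 14102 CPM in PD-L1 3'UTR replicate 1, against 896 and 639 CPM in replicates 2 and 3. It was 522 to 685 CPM in the MS2 control and 230 to 289 CPM in the input. miR-143-3p alone made up 9124 of the 14102 CPM, and without it the sum was 4978 CPM in replicate 1 and 775 and 599 CPM in replicates 2 and 3. Of the input sum, most came from miR-142-5p and miR-142-3p, which had at least 228 counts in each input library. The one exception to the pattern, miR-144-3p, a miRNA of red blood cells, had 1 count in all 9 libraries together. In 9 of the 19, every MS2 control library was above every input library. Over all tested miRNAs this share was 35.8%, an unlike base, since part of the 19 did not pass the filter. Of those that passed, miR-122-5p, miR-1-3p, miR-143-3p, miR-126-3p, miR-451a, miR-203a-3p and miR-375-3p were so separated, and miR-142-5p and miR-142-3p were not. The part of these miRNAs' source in the miR-148a-3p values was not tested.

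**Figure D5:**
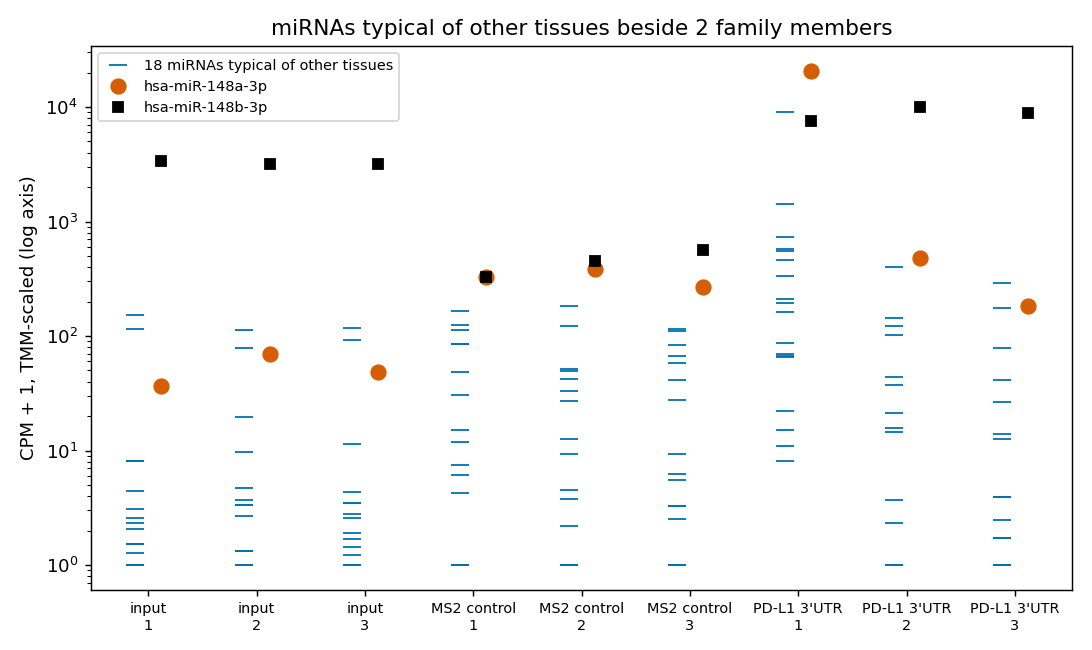
CPM + 1 on a log axis in each library for the 18 listed miRNAs with at least 10 counts in any library (blue dashes), for miR-148a-3p (orange circles) and for miR-148b-3p (black squares). The blue dashes and miR-148a-3p are highest in PD-L1 3'UTR replicate 1, and miR-148b-3p is lower there (7509 CPM) than in replicates 2 and 3.

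The miRNAs whose pattern over the libraries was most like that of each member were found by Pearson's r of log2 CPM over 9 libraries, which share the same 3 groups and depths. For miR-148b-3p they were miR-454-3p (r of 0.992), miR-20a-5p (0.990) and miR-10a-3p (0.990). miR-454-3p, for example, had 191 to 233 CPM in the input, 10.3 to 20.4 in the MS2 control and 1258 to 1637 with the PD-L1 3'UTR, the same order of groups as miR-148b-3p. For miR-152-3p they were miR-92a-3p (0.993), miR-652-5p and miR-100-5p (0.988 each), which share its order of input, PD-L1 3'UTR and MS2 control. These neighbours depended on the measure: by Spearman's rho 1 of the 3 was kept for miR-148b-3p, 1 for miR-152-3p and 2 for miR-148a-3p, and with library totals 1 was kept for miR-152-3p.

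For miR-148a-3p the nearest were miR-143-3p (0.991), miR-203a-3p (0.986) and miR-126-3p (0.965), the last a miRNA typical of endothelium with 571 CPM in PD-L1 3'UTR replicate 1 and at most 36.2 CPM elsewhere. Without that library they were miR-27b-5p (0.985), miR-1-3p (0.970) and miR-143-3p (0.966). Between members, r was 0.71 for miR-148b-3p with miR-152-3p, 0.14 for miR-148a-3p with miR-148b-3p and -0.39 for miR-148a-3p with miR-152-3p. These 3 coefficients were 0.74, -0.32 and -0.82 over the 8 libraries without PD-L1 3'UTR replicate 1.

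Other miRNAs carry part of this seed. Bases 3 to 7 of the family, AGUGC, lie within bases 2 to 8 of 12 further miRNAs among the 371 of 408 tested with a sequence in RefSeq, mostly of the miR-17 and miR-130 seed families. Tested miRNAs without a sequence there, such as miR-130a-3p, were not searched, so these counts may be incomplete. The 3 most abundant are shown with their seeds in capitals.

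hsa-miR-20a-5p: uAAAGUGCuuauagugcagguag

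hsa-miR-17-5p: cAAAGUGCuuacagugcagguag

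hsa-miR-106b-5p: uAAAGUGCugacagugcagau

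Of these 12, 10 were called higher with the PD-L1 3'UTR than in the MS2 control and 0 lower, with a median log2 fold change of 5.45, against 31.4% higher, 28.7% lower and a median of 0.02 for all 408. miR-20a-5p had 6.15, miR-17-5p 6.71 and miR-106b-5p 7.67, all above the 4.30 of miR-148b-3p. Over the input 11 of the 12 were higher and 0 lower, with a median of 3.14, against 34.1%, 32.4% and 0.04 for all miRNAs. In the MS2 control 7 were lower than in the input and 2 higher, with a median of -1.95, against 37.0% lower, 32.8% higher and 0.02 for all miRNAs. The members of one seed family are near-identical, so these miRNAs are not independent of each other. The enrichment of the miR-17 seed family was known when the list was made.

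A further list held 71 tested miRNAs outside the family whose bases 2 to 8 have an exact complement in the CD274 3'UTR, among the same 371. Over the MS2 control 31 of them were higher and 11 lower, or 43.7% and 15.5%, against 31.4% and 28.7% of all miRNAs, and their median log2 fold change was 0.53. Over the input 39 were higher (54.9%) and 17 lower (23.9%), with a median of 0.92, against 34.1% and 32.4% of all miRNAs. In the MS2 control 16 were higher (22.5%) and 29 lower (40.8%) than the input level, with a median of -0.46, against 32.8% and 37.0% of all miRNAs, so the share called lower was near that of all miRNAs. The 3 most abundant were miR-20a-5p, miR-17-5p and miR-155-5p, the last a miRNA of immune activation that was higher than in the MS2 control by 1.42 in log2. For comparison, the same quantity was 4.30 for miR-148b-3p and 0.72 for miR-152-3p. Every listed miRNA with the seed AAAGUGC, that of miR-20a-5p, was called higher over the MS2 control, by 5.26 to 7.67 in log2. So was every one with the seed AGCAGCA, that of miR-16-5p, by 2.40 to 4.4. miRNAs of one seed are not independent, and those with AAAGUGC were already counted among the miRNAs with part of the family's seed. The shares without these seeds were not computed, so an excess for seed matches in general was not shown.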

How the data were processed

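Small RNA of 9 libraries, 3 per group, was analysed, with groups and replicate numbers from the sample titles and table columns matched by sample description. The deposited values are raw read counts per mature miRNA locus. The submitters' processing notes name Cutadapt 1.18 for adapter removal, Bowtie2 2.2.6 for alignment, hg38 as the genome and featureCounts 1.6.3, which the authors used with miRBase annotation to make the counts. How reads with several matches were counted is not given in the sources used here.

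Loci of one name were summed (2883 rows, 2652 names). Tests used edgeR 4.0.16 in R 4.3.3, with filterByExpr by group, which left 408 miRNAs, TMM scaling, and 1 quasi-likelihood fit of 3 group means to all 9 libraries, two-sided, with Benjamini-Hochberg adjustment over all tested miRNAs and a threshold of 0.05. The tested miRNAs held at least 99.68% of each library's counts. The shared dispersion amounted to a biological coefficient of variation of 31.1%. SEs were obtained from each log2 fold change and its F statistic. Log2 CPM for correlations used a prior count of 2, ratios between members an added count of 0.5, and the ratio of a library to the others of its group an added 1 CPM. Replicates of no group agreed within sampling noise, by a chi-square statistic per degree of freedom of at least 12.5. In 5 simulations of the PD-L1 3'UTR against the MS2 control over the 408 miRNAs, with 200 changed by 2 on the log2 scale, 90.7% were recovered and 2.3% of calls were false. Unlike the data, the simulations gave the input and the MS2 control the same means and set no library apart. These rates therefore do not measure the errors of the calls reported here.

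Named were the members, their partner arms, the 3 miRNAs most like each member, the 5 that set PD-L1 3'UTR replicate 1 most apart among those with at least 100 CPM there, and the 3 most abundant of each list. Members, lists and rules were chosen with earlier results of these data known. The list of 19 miRNAs of other tissues, and miR-144-3p and miR-142 within it, were chosen after values were seen. Alternatives were other scalings, filters, tests and samples, including DESeq2 1.42.0.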

Additional observations from a re-analysis of the deposited data

How the results depend on the processing

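Alternatives were scaling by library totals or by DESeq2 size factors, the DESeq2 test, keeping every miRNA or those averaging 10 CPM, a fit of the compared groups alone, a replicate block, robust empirical Bayes, separate loci, a test against a 2-fold difference and leaving out each library. Both rises of miR-148b-3p with the PD-L1 3'UTR, and its fall and that of miR-152-3p in the MS2 control, kept direction and threshold in all 11 alternatives other than leaving out a library, miR-148a-3p left out of the table (added after the data were seen) being 1 of them, and in all 9 fits without 1 library. miR-148b-3p ranged over these from 4.12 to 4.48 against the MS2 control and from 1.2 to 2.0 against the input.

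The call of miR-148a-3p over the MS2 control was lost with robust empirical Bayes (4.45, adjusted p of 0.0726) and with the replicate block (2.65, adjusted p of 0.218), and DESeq2 gave no adjusted p for it in any comparison. Across fits without 1 library it ranged from 0.038 to 4.97. Its rise in the MS2 control over the input passed the threshold with library totals (3.32), no filter (2.44) and only the groups compared (2.66), and ranged from 2.37 to 2.99 without 1 library. miR-152-3p against the input was 0.050 with library totals. Against a 2-fold difference, miR-152-3p passed over neither the MS2 control (0.72) nor the input (-0.52), and 80 miRNAs were higher and 71 lower than in the MS2 control, 87 and 78 than in the input, and 95 lower in the MS2 control. With no filter, 201 were lower than in the input. The ratio of miR-148a-3p to miR-152-3p between trapped groups ranged from -0.88 to 2.59 without 1 library. With size factors, PD-L1 3'UTR replicate 1 stood at -0.22 for miR-152-3p. miR-148b-5p in the MS2 control against the input was 0.86 with library totals (adjusted p of 0.0578) and, in fits without 1 library, ranged from -0.14 (without MS2 control replicate 3) to 0.39.

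Same-numbered libraries had weak correlations of deviations, from -0.18 to 0.13. Differently numbered libraries were not compared in this way, so whether replicate numbers pair the libraries was not settled. The replicate block left 126 miRNAs higher and 117 lower over the MS2 control. The cause of these changes was not tested. miR-148a-5p and miR-152-5p rest on few counts, which limits their precision.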
